A study of Homo sapiens with 12 samples.

Results

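The 293T cells described here carried shRNA3, 1 of 3 short hairpin RNAs against the splicing regulator RBFOX2, and were set against 293T cells with a non-target control hairpin. The shRNA3 group was taken by its label and held 3 of the 12 arrays of the series. The control group held 3 more, and shRNA1 and shRNA2, the other hairpins against RBFOX2, held 3 each. The recorded treatment of the 4 groups was the same apart from the hairpin. 293T, a line derived from human embryonic kidney cells and expressing the large T antigen of SV40, was infected with hairpin lentivirus made in other 293T cells. The cells were put under puromycin at 1 ug/mL after 48 hours, selected for 10 days and extracted with Trizol. Whether the groups also shared a virus preparation, infection date or array batch is not known here. Each hairpin was a single sequence, every group had passed through viral infection and drug selection, and an untransduced group was not analysed here. The labels number the replicates without saying whether each came from its own culture. The p-values therefore describe the spread of these arrays, part or all of which may be technical.

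RBFOX2 is an RNA-binding protein that recognises GCAUG in introns near alternative exons. In general it favours inclusion of an exon when bound downstream of it and skipping when bound upstream. Many of its known target exons lie in genes of the cytoskeleton, cell adhesion and vesicle traffic. The arrays carry separate probe sets for exons and for junctions between exons. A gene value, the mean log2 signal of a gene's probe sets, therefore tracks the transcript level, while a splicing index, the log2 signal of a probe set minus the mean of the other probe sets of its gene, tracks unequal change within the gene. The RNA was extracted from whole cultures, so fewer cells making a transcript and less of it in each cell cannot be told apart.

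Depletion of RBFOX2 by shRNA3 was seen over nearly the whole transcript and was uneven. The RBFOX2 gene value was 8.82, 8.84 and 8.85 on the shRNA3 arrays, against 9.59, 9.58 and 9.58 on the control arrays, a log2 change of -0.74 (SE 0.03, n = 3 arrays per group, limma adjusted p = 2.14e-08). The shRNA3 arrays stood apart from the control arrays and lay between those of shRNA1 and shRNA2, whose changes were -1.04 and -0.46 (shRNA3 minus shRNA1 0.29, adjusted p = 0.000182, and shRNA3 minus shRNA2 -0.28, adjusted p = 0.000217). Of the 44 RBFOX2 probe sets, 26 for exons and 18 for junctions, 42 were lower with shRNA3 and 34 were called lower, where 3.56% of all single probe sets with a gene name were called lower. None was called higher by limma at the adjusted threshold, beside 2.77% of all such probe sets.

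The median RBFOX2 probe set kept 56.5% of its control signal, and single ones kept between 37.8% and 134%. The lowest share was that of the junction probe set JUC22005065.hg.1, with log2 signals of 7.14, 7.58 and 6.94 on the shRNA3 arrays, against 8.57, 8.78 and 8.51 on the control arrays (single probe set adjusted p = 0.00128). The highest was that of the junction probe set JUC22005089.hg.1, with signals of 10.41, 10.17 and 10.60 on the shRNA3 arrays, against 10.03, 10.04 and 9.84 on the control arrays (single probe set adjusted p = 0.144). The groups did not overlap in either junction, but only the fall was called, so a rise in the signal of JUC22005089.hg.1 was not established. Relative to the rest of RBFOX2, JUC22005089.hg.1 was raised by 1.19 (SE 0.18, adjusted p = 0.0165). In all, 7 RBFOX2 probe sets passed the splicing index test, 6 of them higher than the rest of the gene. Apart from JUC22005089.hg.1, the signals of these 6 changed by only -0.12 to 0.09, none called. They were thus raised only beside a gene value that fell. The call of JUC22005089.hg.1 was lost under 5 alternatives, with no level filter and without control replicate 1 or 3 or shRNA3 replicate 1 or 3 (largest adjusted p = 0.0763). The other family members, RBFOX1 (log2 change 0.02, SE 0.04, adjusted p = 0.696) and RBFOX3 (-0.07, SE 0.04, adjusted p = 0.217), did not pass at the gene level.

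**Figure D1:**
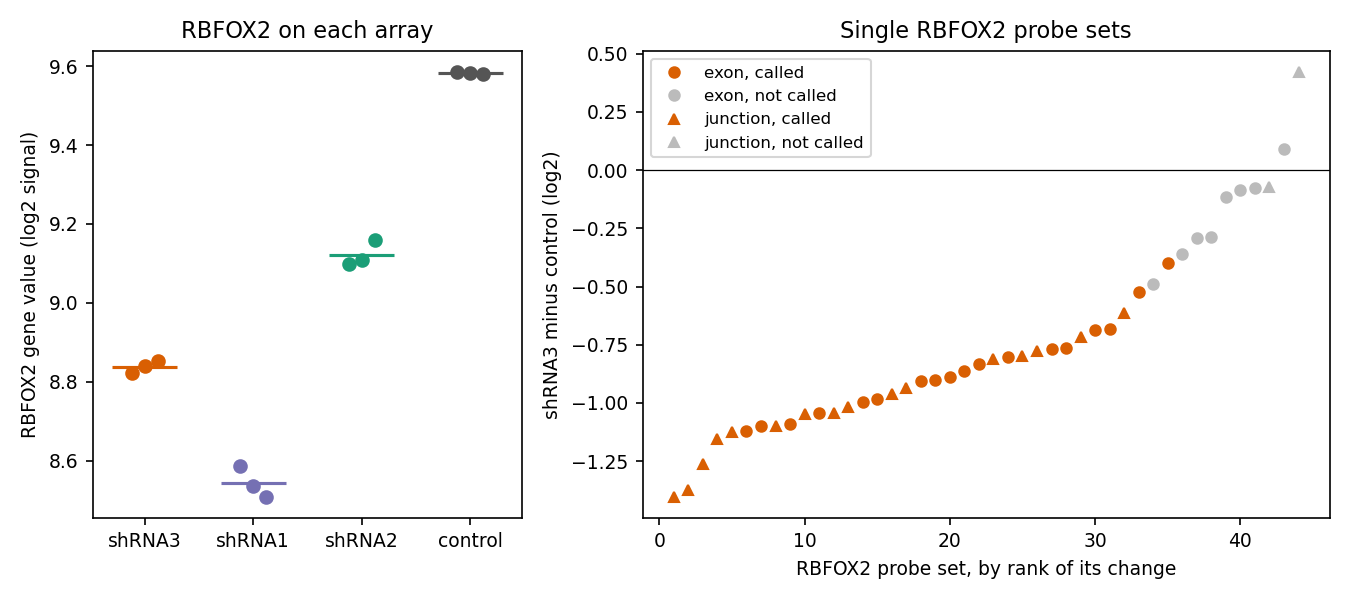
RBFOX2 with shRNA3. Left, the RBFOX2 gene value (log2 signal) on each array of each group, with a line at the group mean; the 3 shRNA3 arrays lie at 8.82, 8.84 and 8.85 and the 3 control arrays at 9.58 or 9.59. Right, the log2 change of each of the 44 RBFOX2 probe sets, in order of size, circles for exons and triangles for junctions; coloured points are the 34 called at an adjusted p below 0.05.

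Gene levels moved widely and by small amounts. Of 16648 genes tested, 4468 (26.8%) were called at an adjusted p below 0.05, 1999 higher (12%) and 2469 lower (14.8%) with shRNA3. The median change was 0.17 among the genes called higher and -0.17 among those called lower, and 0.02 over all genes. At least 1.25-fold were 146 of the rises and 180 of the falls, at least 1.5-fold were 15 and 7, and no called gene reached 2-fold. The shRNA3 and control arrays did not overlap in 7989 genes (48%), which include 4385 of the called ones. The count of called genes rests on single arrays: it was 2186 without shRNA3 replicate 1, 2526 without control replicate 1 and 2848 without control replicate 3. The balance of directions turned when arrays were weighted by their quality, with 3171 genes called higher and 3065 called lower.

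The largest rises were in a zinc finger gene, a secreted hormone and regulators of growth and transcription. ZC3H6, a gene of the CCCH zinc finger family, had gene values of 8.90, 8.86 and 8.54 on the shRNA3 arrays, against 7.69, 7.93 and 7.83 on the control arrays, and rose 1.93-fold (log2 0.95, SE 0.15, limma adjusted p = 0.000746). All 25 of its probe sets were higher and 23 were called. The gene value is the mean of these probe sets, so such counts, here and below, are not a separate test. STC1, which encodes stanniocalcin, a glycoprotein hormone first known for calcium and phosphate balance, had 7.76, 7.79 and 7.55 on the shRNA3 arrays, against 6.44, 7.16 and 6.88 on the control arrays (log2 0.88, SE 0.16, adjusted p = 0.0019). DDIT4, an inhibitor of mTORC1 signalling induced by many stresses, had 10.65, 10.60 and 10.53 on the shRNA3 arrays, against 9.48, 10.05 and 9.76 on the control arrays (0.83, SE 0.12, adjusted p = 0.000665). The groups did not overlap in any of these 3 genes, which the choice of the largest rises required. Control replicate 1 was the lowest control array in each. BHLHE40, a transcriptional repressor that also acts on the circadian clock, had 9.84, 9.80 and 9.53 on the shRNA3 arrays, against 8.71, 9.14 and 8.97 on the control arrays (0.79, SE 0.12, adjusted p = 0.000622), again with control replicate 1 lowest.

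The other 8 of the 12 largest rises lay between 0.63 and 0.73 on the log2 scale. SULF1, which trims sulfate from heparan sulfate outside the cell, had 8.73, 8.71 and 8.47 on the shRNA3 arrays, against 7.79, 8.02 and 7.90 on the control arrays (log2 0.73, SE 0.11, adjusted p = 0.000525). The collagen receptor kinase DDR2 had 8.33, 8.36 and 8.25 on the shRNA3 arrays, against 7.60, 7.59 and 7.62 on the control arrays (0.71, SE 0.06, adjusted p = 9.79e-06), with little spread in either group. TENM1, a teneurin that links neighbouring neurons and is listed on the array as ODZ1, had 8.54, 8.62 and 8.58 on the shRNA3 arrays, against 7.87, 7.88 and 7.97 on the control arrays, and all 58 of its probe sets were higher (0.67, SE 0.08, adjusted p = 0.00016). CLTRN, listed as TMEM27, a partner of amino acid transporters in the kidney, rose by 0.66 (SE 0.09, adjusted p = 0.000291) and the glucose transporter gene SLC2A3 by 0.66 (SE 0.11, adjusted p = 0.00114). The neurofilament gene NEFM (0.66, SE 0.08), the mitochondrial folate enzyme ALDH1L2 (0.63, SE 0.07) and FAXDC2, listed as C5orf4 (0.63, SE 0.09), complete the 12 largest rises. All 12 were drawn only from called genes whose groups did not overlap.

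Among the largest falls, RBFOX2 itself came behind a keratin-associated protein gene and a kinase. KRTAP19-1 had gene values of 9.05, 9.03 and 8.80 on the shRNA3 arrays, against 9.92, 9.66 and 9.62 on the control arrays, a change of -0.78 (SE 0.08, adjusted p = 8.38e-05) over 5 probe sets. NEK7, a kinase of mitosis that also takes part in inflammasome activation, had 8.35, 8.39 and 8.12 on the shRNA3 arrays, against 9.08, 9.04 and 8.99 on the control arrays, a change of -0.75 (SE 0.06, adjusted p = 9.56e-06). HYCC1, listed as FAM126A, encodes hyccin, which helps to bring a phosphatidylinositol kinase to the plasma membrane, and had 8.76, 8.88 and 8.75 on the shRNA3 arrays, against 9.48, 9.45 and 9.43 on the control arrays (-0.65, SE 0.04, adjusted p = 7.69e-07). In each of the 3 every shRNA3 array lay below every control array, which the choice of the largest falls required. ID3, which blocks DNA binding by helix-loop-helix factors, had 9.11, 9.12 and 9.27 on the shRNA3 arrays, against 9.98, 9.64 and 9.77 on the control arrays (-0.63, SE 0.11, adjusted p = 0.00126). The ceramide synthase CERS5 had 8.42, 8.59 and 8.51 on the shRNA3 arrays, against 9.004, 9.15 and 9.14 on the control arrays (-0.59, SE 0.05, adjusted p = 2.25e-05), and all 27 of its probe sets were lower.

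The rest of the 12 largest falls were those of RRH (-0.61, SE 0.07), AMMECR1 (-0.54, SE 0.05), FKBP7, which helps proteins fold in the endoplasmic reticulum (-0.53, SE 0.06), the Polycomb gene SCML2 (-0.53, SE 0.05), PIGW, which acts in the synthesis of GPI anchors (-0.52, SE 0.07), and NECAP1, which takes part in clathrin-mediated endocytosis (-0.52, SE 0.04). Their adjusted p-values ran from 1.82e-05 for NECAP1 to 0.000462 for PIGW. The call of PIGW was lost when the gene value was the median of its 7 probe sets (adjusted p = 0.264).

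**Figure D2:**
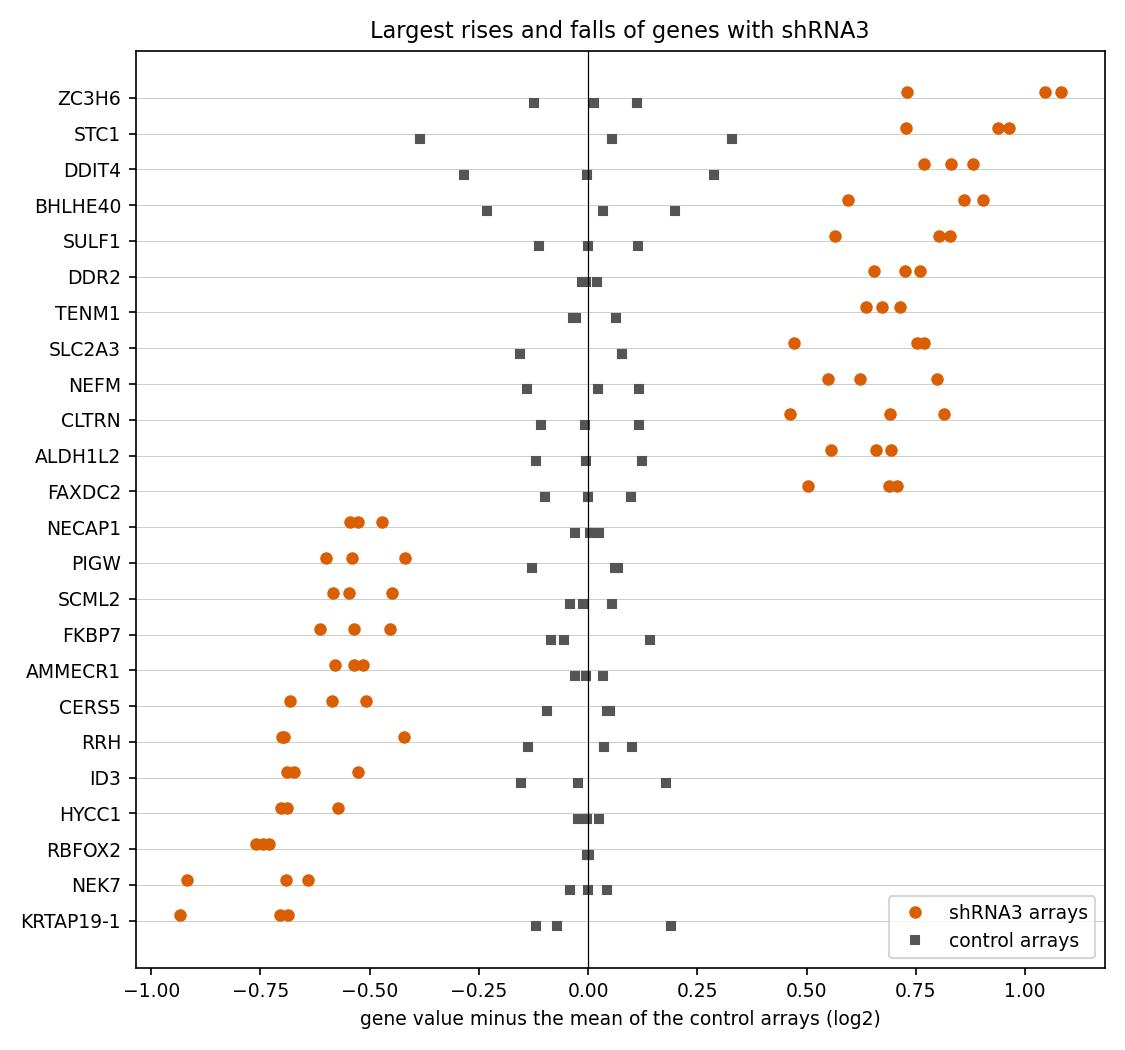
Gene values of the 12 largest rises and 12 largest falls with shRNA3, each minus the mean of the 3 control arrays (log2, x axis). Circles are shRNA3 arrays and squares are control arrays. The 24 were drawn only from called genes whose groups do not overlap, which were 4385 of the 4468 called genes. The control arrays of STC1 and DDIT4 are the most widely spread.

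Most measured genes of hypoxia and glycolysis rose with shRNA3. Hypoxia-inducible factors bind the cores ACGTG and GCGTG of hypoxia response elements, and their targets include glucose transporters, glycolytic enzymes and the enzymes that shape collagen. Of the 34 genes of the hypoxia and glycolysis list, all measured, 26 rose, none fell and 8 did not pass, with a median change of 0.21, beside 12% called higher and a median of 0.02 over all genes. The glucose transporter SLC2A3 had 8.34, 8.33 and 8.05 on the shRNA3 arrays, against 7.42, 7.65 and 7.65 on the control arrays. The pyruvate dehydrogenase kinase PDK1 had 9.77, 9.85 and 9.68 on the shRNA3 arrays, against 8.96, 9.33 and 9.12 on the control arrays (log2 0.63, SE 0.08, adjusted p = 0.000287). NDRG1, a gene long used as a hypoxia marker, had 10.01, 9.89 and 9.85 on the shRNA3 arrays, against 9.27, 9.43 and 9.33 on the control arrays (0.57, SE 0.08, adjusted p = 0.00036), and 78 of its 81 probe sets were higher. In all 3 genes each shRNA3 array was above each control array. The count of rises ran from 18 to 27 when single arrays were left out. Its median was 0.18 with shRNA1 and 0.13 with shRNA2, measured against the same control arrays, and shRNA3 differed from both other hairpins in none of the 34, beside 1.78% of all genes. The sources used here do not give the oxygen level of the cultures.

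The promoters of 3 members that rose are shown because they hold the core letters; they are the members with the largest rises among those with such a match and a sequence that could be printed. Each is the window of 300 bases around the gene start in RefSeq's annotation of GRCh38.p14, mostly upstream of it, with every ACGTG or GCGTG, on either strand (CACGT or CACGC when read on the other), in capitals. PFKFB4, a regulator of glycolysis, lies at chr3:48556754-48557053 on the minus strand and holds 1 match. The hexokinase gene HK2 lies at chr2:74833877-74834176 on the plus strand and holds 3. BNIP3, which acts in mitophagy, lies at chr10:131981874-131982173 on the minus strand and holds 6, of which ACGTG and CACGT overlap in CACGTG.
PFKFB4: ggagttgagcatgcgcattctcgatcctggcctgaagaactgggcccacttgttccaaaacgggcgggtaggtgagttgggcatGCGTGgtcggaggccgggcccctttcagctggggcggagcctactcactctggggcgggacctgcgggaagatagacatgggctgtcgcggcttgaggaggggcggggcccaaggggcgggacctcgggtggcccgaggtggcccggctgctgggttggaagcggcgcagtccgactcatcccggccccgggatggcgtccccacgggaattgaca
HK2: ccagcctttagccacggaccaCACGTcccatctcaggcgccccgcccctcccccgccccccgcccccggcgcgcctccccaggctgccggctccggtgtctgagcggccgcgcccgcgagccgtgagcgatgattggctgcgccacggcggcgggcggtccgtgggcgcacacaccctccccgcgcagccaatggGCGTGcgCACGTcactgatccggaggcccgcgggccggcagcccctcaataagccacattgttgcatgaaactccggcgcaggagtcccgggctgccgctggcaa
BNIP3: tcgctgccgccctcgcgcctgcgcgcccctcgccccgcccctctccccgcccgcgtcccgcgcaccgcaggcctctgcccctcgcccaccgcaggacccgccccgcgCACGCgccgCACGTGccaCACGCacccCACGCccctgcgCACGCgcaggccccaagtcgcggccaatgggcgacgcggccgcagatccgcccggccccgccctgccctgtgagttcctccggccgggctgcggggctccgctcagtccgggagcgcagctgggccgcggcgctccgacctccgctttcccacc
PFKFB4 had gene values of 8.55, 8.56 and 8.47 on the shRNA3 arrays, against 7.90, 8.10 and 7.98 on the control arrays (log2 0.53, SE 0.07, adjusted p = 0.00025). HK2 had 9.60, 9.58 and 9.54 on the shRNA3 arrays, against 8.95, 9.15 and 9.08 on the control arrays (0.51, SE 0.07, adjusted p = 0.000287). BNIP3 had 10.40, 10.43 and 10.30 on the shRNA3 arrays, against 9.77, 10.07 and 9.84 on the control arrays (0.49, SE 0.08, adjusted p = 0.00115). The groups did not overlap in any of the 3. Of the 34 list members 30 had a promoter window, and 21 of these (70%) held ACGTG or GCGTG on either strand, beside 59.5% of the 13119 windows of genes tested. Those without a match included PDK1, whose change (0.63) was larger than those of the 3 shown, MXI1 (0.29) and EGLN3 (0.28). ACGTG alone was in 43.3% of the list's windows and in 24.7% of those of genes tested. A match says only that the letters are there.

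Members of the integrated stress response rose as well, none of them fell, and their rises were in part smaller than with the other hairpins. This programme, run by the factor ATF4, raises amino acid synthesis, transport and folate genes. Of 27 measured members 10 rose (37%) and 17 did not pass, with a median of 0.10, beside 12% of all genes called higher. Beside DDIT4 and ALDH1L2 these included CTH, of cysteine synthesis (0.48), and the mitochondrial PCK2 (0.39). Over the same list the median was 0.22 with shRNA1 and 0.24 with shRNA2, measured against the same control arrays. In 5 members, named here after their values were seen, shRNA3 was lower than both other hairpins by the test of each difference, as it was in 1.32% of all genes: DDIT3, CHAC1, SESN2, SLC7A11 and SLC7A5. The cystine transporter gene SLC7A11 changed by 0.07 with shRNA3, which did not pass, by 0.39 with shRNA1 and by 0.53 with shRNA2 (shRNA3 minus shRNA1 adjusted p = 0.00798, shRNA3 minus shRNA2 adjusted p = 0.000494). The stress-induced transcription factor gene DDIT3 changed by 0.28 with shRNA3, by 0.73 with shRNA1 and by 0.60 with shRNA2.

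Among immediate early genes, which cells switch on within minutes of a stimulus, 11 of 24 rose (45.8%) and 1 fell (4.17%), beside 12% and 14.8% of all genes. ATF3 rose by 0.32, KLF10 by 0.27 and MYC by 0.26, while EGR1 had 8.13, 8.12 and 8.13 on the shRNA3 arrays, against 8.36, 8.39 and 8.53 on the control arrays (-0.30, SE 0.07, adjusted p = 0.0102). The call of ATF3 was lost without control replicate 1 or shRNA3 replicate 1 (largest adjusted p = 0.0629), and that of EGR1 with medians of probe sets (adjusted p = 0.22). The count of rises in this list was 6 without control replicate 1 and 5 without shRNA3 replicate 1. Of 43 genes of the extracellular matrix and its receptors 17 rose (39.5%) and 5 fell (11.6%), the share of falls being below the 14.8% of all genes. The collagen cross-linking enzyme LOX had 8.58, 8.60 and 8.48 on the shRNA3 arrays, against 7.91, 8.12 and 8.07 on the control arrays (0.52, SE 0.06, adjusted p = 9.81e-05). In contrast the collagen-binding integrin ITGA2 had 7.68, 7.80 and 7.69 on the shRNA3 arrays, against 8.10, 8.13 and 8.11 on the control arrays (-0.39, SE 0.04, adjusted p = 5.64e-05), with no overlap. ITGAV (-0.36) and ITGB1 (-0.24), named after their values were seen, fell too, and in these 3 integrins shRNA3 was lower than both other hairpins, as it was in 1.32% of all genes. Rises in the matrix list numbered 10 without shRNA3 replicate 1, 10 without control replicate 1 and 11 without control replicate 3, and falls numbered 3 without shRNA3 replicate 1 or 3 or control replicate 3.

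Neuronal genes that this line expresses moved both ways. Of 23 measured, 8 rose (34.8%) and 2 fell (8.7%), with a median of 0.11, beside 12% of all genes called higher and 14.8% called lower. NEFM had 10.09, 9.91 and 9.84 on the shRNA3 arrays, against 9.15, 9.41 and 9.31 on the control arrays (log2 0.66, adjusted p = 0.000207). The synaptotagmin gene SYT11 had 7.47, 7.43 and 7.47 on the shRNA3 arrays, against 6.78, 6.81 and 6.93 on the control arrays, over 4 probe sets (0.62, SE 0.06, adjusted p = 6.03e-05). INA, the third intermediate filament gene of neurons on the list, went the other way, with 9.13, 9.18 and 9.24 on the shRNA3 arrays, against 9.74, 9.63 and 9.64 on the control arrays (-0.49, SE 0.07, adjusted p = 0.000347). NEFL rose by 0.40 (SE 0.06, adjusted p = 0.00109). These filament genes are among the markers used for 293T, of which all 7 were measured, 3 rose (42.9%) and 1 fell (14.3%). By mean signal the 7 ran from the 52.2nd percentile of genes for PAX2 to the 97.6th for VIM. Of 13 tested markers of blood, fibroblasts, endothelium, hepatocytes and melanocytes none was called with shRNA3. The highest of them by signal, COL1A1, stood at the 62.6th percentile, above PAX2. Calls were gained by PMEL under 7 alternatives, by COL1A2 under 3 and by DCN under 1.

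Among the lists with at least 10 measured members, proteasome subunits had the largest share of falls. Of 31 subunits of the proteasome, which breaks down ubiquitin-tagged proteins, 21 fell, none rose and 10 did not pass, with a median of -0.17, beside 14.8% of genes called lower. The ATPase subunit gene PSMC4 had 11.23, 11.35 and 11.27 on the shRNA3 arrays, against 11.64, 11.55 and 11.63 on the control arrays (-0.32, SE 0.05, adjusted p = 0.000804). PSMC2 had 10.37, 10.44 and 10.31 on the shRNA3 arrays, against 10.80, 10.56 and 10.60 on the control arrays (-0.28, SE 0.07, adjusted p = 0.00906). PSMD12 had 10.20, 10.10 and 10.16 on the shRNA3 arrays, against 10.52, 10.40 and 10.37 on the control arrays (-0.28, SE 0.05, adjusted p = 0.00104). The groups did not overlap in any of the 3. The list's median was -0.08 with shRNA1 and -0.10 with shRNA2, against the same control arrays, and its count of falls with shRNA3 was 11 when gene values were medians of probe sets.

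Several other lists held more falls than rises, as did all genes, of which 14.8% were called lower and 12% higher. Of 14 heat shock genes 6 fell and none rose, led by the co-chaperones DNAJA1 (-0.46, SE 0.09, adjusted p = 0.00294) and DNAJB1 (-0.31). Of 39 DNA replication genes 16 fell and 2 rose, with POLE4, of DNA polymerase epsilon, at -0.46 and the helicase subunit MCM7 at 0.24. Of 31 genes of G2 and mitosis 10 fell, among them CDC20 and CCNB1 at -0.20 each, and 2 rose. Of 20 p53 pathway genes 9 fell, such as RRM2B (-0.30) and ZMAT3 (-0.27), and 2 rose, GADD45A by 0.30. With medians of probe sets the calls of CCNB1 (adjusted p = 0.235), ZMAT3 (adjusted p = 0.0716) and GADD45A (adjusted p = 0.429) were lost, and that of GADD45A was also lost with no level filter and without shRNA3 replicate 1. Of 32 genes of the respiratory chain and ATP synthase 11 fell and none rose, with ATP5PF at -0.32, a call lost with medians of probe sets (adjusted p = 0.0532), and NDUFA9 at -0.31. Of 27 lysosome and autophagy genes 10 fell and 2 rose, the acid glucosidase GAA by 0.44. Of 23 chaperone and stress genes of the endoplasmic reticulum 8 fell and 1 rose. In these 7 lists the share of falls ran from 32.3% to 45%. Of 33 cytosolic ribosomal protein genes 2 fell (6.06%), below the share of all genes, and none rose. The counts of falls depend on single arrays: without shRNA3 replicate 1 they numbered 3 heat shock, 7 DNA replication, 4 mitosis, 7 respiratory chain, 5 lysosome and 5 endoplasmic reticulum genes, and without control replicate 1 they numbered 3, 8, 5, 8, 6 and 5 in the same order. Without shRNA3 replicate 3 they numbered 3 heat shock, 10 DNA replication, 5 mitosis and 6 lysosome genes, and without control replicate 3 they numbered 9 DNA replication and 6 lysosome genes.

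Of the lists of RNA regulators, those of SR proteins and hnRNPs and of RNA interference held the larger shares of falls. Of 21 SR proteins and hnRNPs, the general regulators of splice site choice, 7 fell (33.3%, beside 14.8% of all genes) and none rose, with SRSF6 at -0.27 and SRSF3 at -0.16. That count was 2 without shRNA3 replicate 1 and 3 without control replicate 1, and the call of SRSF6 was lost without either array (largest adjusted p = 0.0638), while that of SRSF3 was lost with medians of probe sets (adjusted p = 0.43). Of 24 splicing regulators of other families 5 fell (20.8%), a share near that of all genes, and 1 rose (4.17%). CELF1, which binds GU-rich elements, had 9.90, 9.94 and 9.91 on the shRNA3 arrays, against 10.16, 10.19 and 10.22 on the control arrays (-0.27, SE 0.04, adjusted p = 0.000722). Of 11 genes of RNA interference, the pathway that the hairpin itself enters, 4 fell (36.4%) and 1 rose (9.09%). The Argonaute gene AGO1, listed as EIF2C1, had 9.72, 9.79 and 9.79 on the shRNA3 arrays, against 10.08, 10.08 and 10.10 on the control arrays (-0.32, SE 0.04, adjusted p = 0.00025). AGO4, listed as EIF2C4, had 8.49, 8.53 and 8.46 on the shRNA3 arrays, against 8.09, 8.19 and 8.18 on the control arrays (0.34, SE 0.06, adjusted p = 0.00216). In both genes the groups stood apart, in opposite directions. The falls in the interference list numbered 2 without shRNA3 replicate 1 or without control replicate 3, and those among the other splicing regulators 2 without shRNA3 replicate 1, control replicate 1 or control replicate 3 and 3 without shRNA3 replicate 3.

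The remaining lists were mixed, and several of their shares lay near the 14.8% of all genes called lower and the 12% called higher. Of 24 cholesterol and fatty acid genes 6 fell (25%), with HMGCS1 at -0.32, and 3 rose (12.5%). Of 15 cytosolic tRNA synthetases 5 fell (33.3%) and 2 rose (13.3%), and of 17 ABC transporters 7 fell (41.2%) and 3 rose (17.6%). Of 24 sphingolipid genes 6 fell (25%) and 1 rose (4.17%), with CERS5 far ahead of UGCG (-0.21), whose call was lost with medians of probe sets (adjusted p = 0.33). Of 17 TGF-beta and BMP targets 4 fell (23.5%), ID3 among them, and 2 rose (11.8%), with the BMP inhibitor NOG at 0.41. Of 25 genes of interferon and double-stranded RNA sensing 5 rose (20%) and 1 fell (4%), and the largest rise, of STAT2, was 0.23. Of 18 epithelial and mesenchymal genes 4 rose (22.2%), the cadherin CDH1 by 0.31, and 2 fell (11.1%). Without shRNA3 replicate 1, and also without control replicate 1, the falls numbered 3 cholesterol, 2 synthetase and 3 sphingolipid genes and the interferon rises 3. Without shRNA3 replicate 3 the synthetase falls and the interferon rises numbered 3 each, and without control replicate 3 the interferon rises numbered 3.

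**Figure D3:**
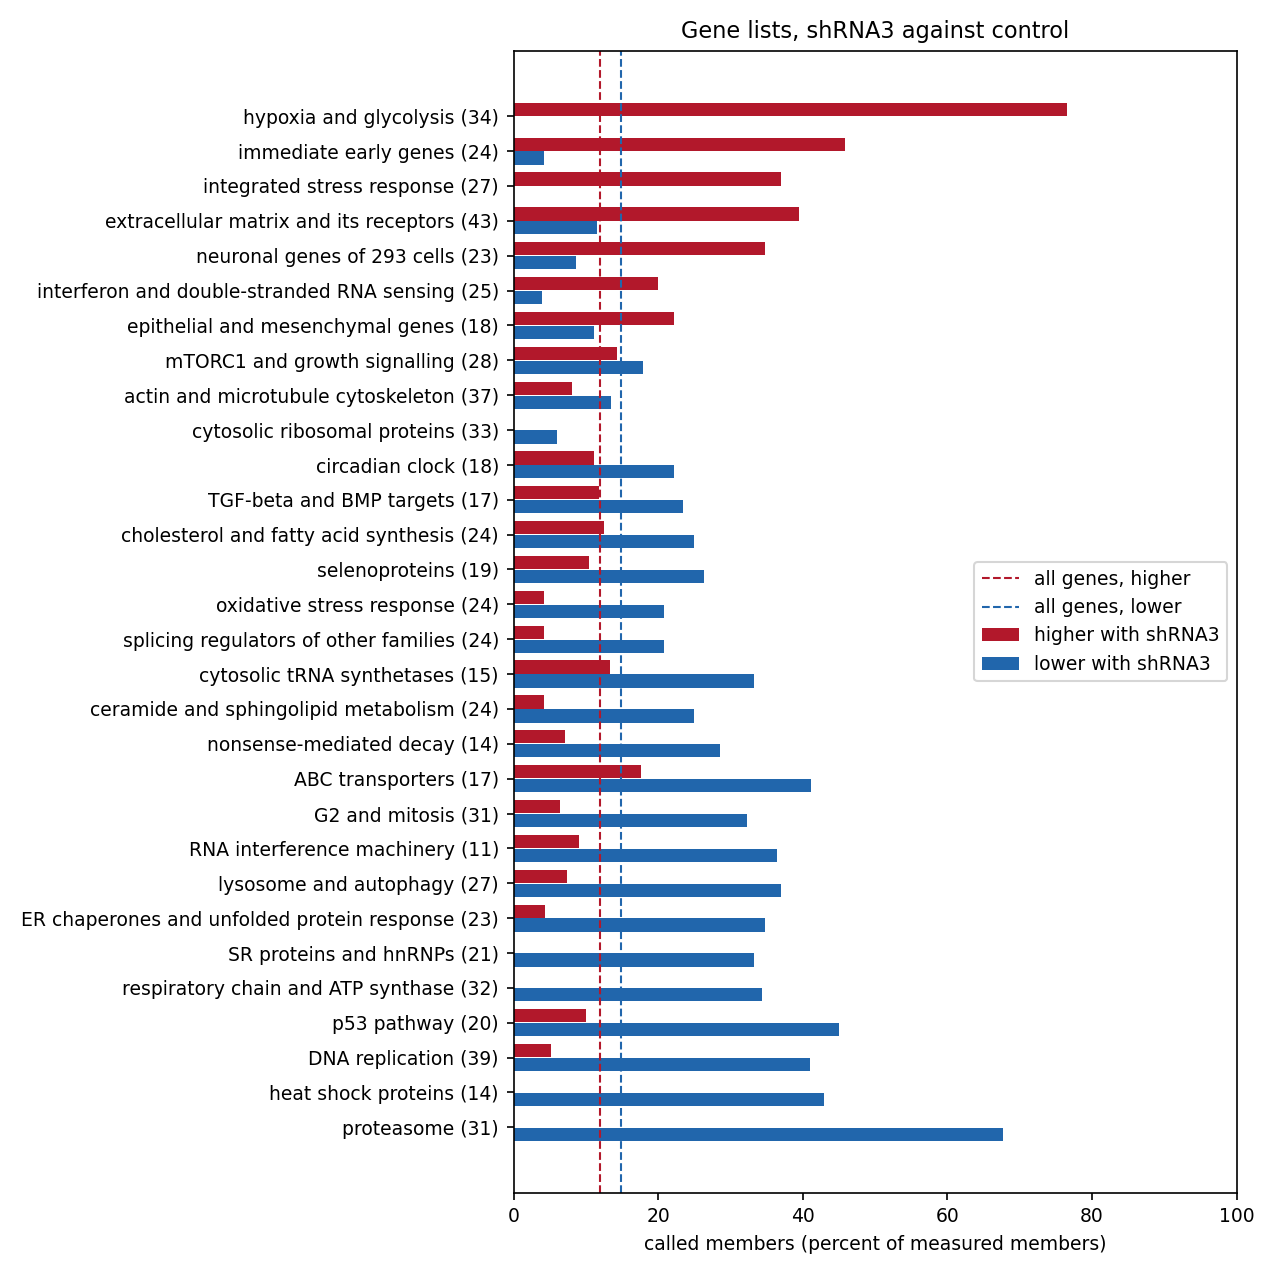
Share of the measured members of each gene list that were called higher (red) or lower (blue) with shRNA3 (x axis, percent; number measured in parentheses), for the lists with at least 10 measured members other than the RBFOX targets and the markers. Dashed lines mark the 12% of all genes called higher and the 14.8% called lower. Hypoxia and glycolysis genes have the highest share of rises, and proteasome subunits the highest share of falls.

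Within genes, shRNA3 changed few probe sets and changed some of them strongly. Of 417377 splicing indices tested, 815 (0.195%) passed at an adjusted p below 0.05 and at least 1.5-fold, 329 higher (0.0788%) and 486 lower (0.116%) with shRNA3. They lay in 586 of 15891 genes (3.69%). Junctions made up 570 of them, 0.347% of the junctions tested, and exons 245, 0.0968% of the exons tested. Falls outnumbered rises among both: 343 junctions fell and 227 rose, and 143 exons fell and 102 rose. With no minimum fold the balance turned, with 1774 rises and 1561 falls. The large changes were falls more often still, with 104 falls and 35 rises of at least 2-fold, and 24 falls and 3 rises of at least 4-fold. Of the 586 genes 292 were also called at the gene level and 294 were not, beside 26.8% of all genes called. In some, all called probe sets moved against the gene value, as in NEK7 (4 higher, gene -0.75) and FAXDC2 (5 lower, gene 0.63). In others they moved with it, as in FAT3 (4 lower, gene -0.19) and SEPTIN6 (4 higher, gene 0.19). An index is a difference from the rest of its gene, so a change in the gene value alone can move it. How many of the 815 are splicing changes was not tested. In 143 of the 815 the mean signal of 1 group lay below the level cutoff, shRNA3 in 83 falls and control in 60 rises, so that such changes may be understated. The count of 815 was 312 without shRNA3 replicate 1, 353 without control replicate 3 and 458 without control replicate 1.

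Of the 12 largest falls 11 were of junctions. The junction probe set JUC07009127.hg.1 of HYCC1 had log2 signals of 5.39, 5.02 and 4.86 on the shRNA3 arrays, against 10.27, 10.31 and 10.27 on the control arrays, and its splicing index changed by -4.68 (SE 0.12, limma adjusted p = 2.15e-08), 25.6-fold lower. The shRNA3 arrays were all below the level cutoff of 6.53, so the size may be understated. The same holds for the large falls described next in ATP5F1C, CLSTN1, FN1, SPAG9, APBB2 and DST, whose shRNA3 means were below the cutoff. Of ATP5F1C, the gamma subunit of the mitochondrial ATP synthase, the junction probe set JUC10000400.hg.1 had 5.74, 5.92 and 5.94 on the shRNA3 arrays, against 9.43, 9.63 and 9.42 on the control arrays (-3.53, SE 0.22, adjusted p = 2.11e-05). Of CLSTN1, a transmembrane protein that links vesicles to kinesin, JUC01018045.hg.1 had 6.25, 6.74 and 6.40 on the shRNA3 arrays, against 10.06, 10.07 and 9.89 on the control arrays (-3.51, SE 0.18, adjusted p = 4.21e-06). In all 3 the shRNA3 arrays lay far below the control arrays, while the gene values of ATP5F1C and CLSTN1 changed by only -0.23 and -0.11.

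Of EPB41L2, a protein 4.1 relative that ties the membrane to actin, the junction probe set JUC06013065.hg.1 had 6.90, 6.79 and 6.92 on the shRNA3 arrays, against 9.99, 10.28 and 10.01 on the control arrays (-3.16, SE 0.11, adjusted p = 2.33e-07). Another of its junctions, JUC06013041.hg.1, had 10.05, 10.14 and 9.98 on the shRNA3 arrays, against 8.94, 8.93 and 8.65 on the control arrays (1.36, SE 0.09, adjusted p = 4.62e-05). The gene thus held large changes both ways. The only exon among the 12 largest falls was PSR02044167.hg.1 of fibronectin, FN1, with 5.98, 6.05 and 5.53 on the shRNA3 arrays, against 8.23, 8.64 and 8.43 on the control arrays (-2.81, SE 0.12, adjusted p = 1.43e-06). The FN1 exon probe set PSR02044166.hg.1 (-2.28) and 2 of its junctions (-2.29 and -2.05) fell with it, and 1 junction, JUC02023148.hg.1, rose by 1.27, while the FN1 gene value rose by 0.20. The other large falls were in the scaffold SPAG9 (-2.47), the atypical cadherin FAT3 (-2.42), APBB2 (-2.41), the cytolinker DST (-2.41), the actin regulator ENAH (-2.36), MPRIP (-2.33) and the clathrin adaptor PICALM (-2.30), with adjusted p-values from 6.16e-07 for ENAH to 0.00014 for DST.

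Rises were led by the septin gene SEPTIN6, whose junction probe set JUC0X008977.hg.1 had 8.48, 8.62 and 8.23 on the shRNA3 arrays, against 5.97, 6.28 and 6.02 on the control arrays (2.23, SE 0.11, adjusted p = 2.68e-06). The control arrays were below the level cutoff there, as were the control means for ABI1 and DIAPH2 below, so these sizes may be understated. Of EPB41, the protein 4.1 of the membrane skeleton, JUC01003154.hg.1 had 9.94, 9.91 and 9.78 on the shRNA3 arrays, against 7.83, 7.77 and 7.67 on the control arrays (2.20, SE 0.08, adjusted p = 2.54e-07). Of the Golgi protein gene GOLIM4, JUC03017462.hg.1 had 10.40, 10.55 and 10.33 on the shRNA3 arrays, against 8.78, 8.48 and 8.68 on the control arrays (2.15, SE 0.10, adjusted p = 2.56e-06). These 3 were the called rises of at least 4-fold. Next came ABI1, a subunit of the WAVE complex that starts actin branches (1.85), the formin DIAPH2 (1.83), the complex I subunit NDUFA12 (1.61), a junction of HYCC1 (1.58), an exon of the prolyl isomerase FKBP14 (1.53), the phosphatase PPP5C (1.46), the microtubule plus-end protein CLASP2 (1.37), APBB2 (1.37) and EPB41L2 (1.36). Adjusted p-values of these ran from 2.44e-05 for PPP5C to 0.00756 for NDUFA12, and the call in DIAPH2 was lost with the compared arrays alone (adjusted p = 0.0526).

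**Figure D4:**
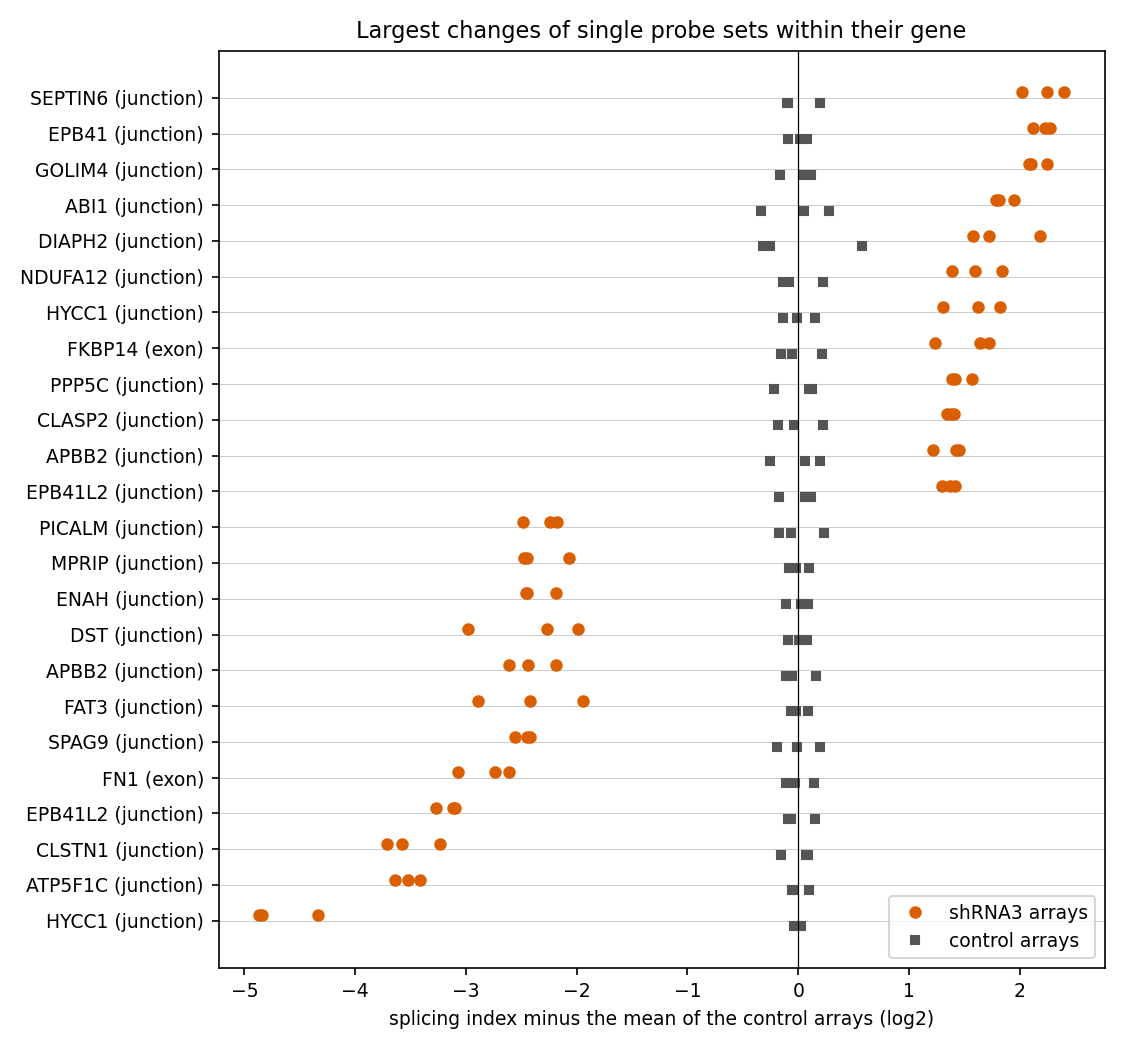
Splicing index of the 12 largest rises and 12 largest falls with shRNA3, each minus the mean of the 3 control arrays (log2, x axis). Circles are shRNA3 arrays and squares are control arrays. The falls reach further than the rises, to -4.68 for the HYCC1 junction and 2.23 for the SEPTIN6 junction as differences of group means.

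Most genes with a change had 1 changed probe set, and those with several often had both directions. Of the 586 genes 466 held 1 called probe set and 120 held at least 2, of which 49 held rises and falls. Of the 56 with at least 3, 29 held both. AP1S2, a subunit of the clathrin adaptor AP-1, had the most, 11, with 6 rises and 5 falls, while its gene value changed by -0.01 (adjusted p = 0.827). Its exon probe set PSR0X011790.hg.1 had 8.77, 8.88 and 8.76 on the shRNA3 arrays, against 10.07, 10.04 and 10.01 on the control arrays (-1.27, SE 0.07, adjusted p = 4.45e-06). Its exon probe set PSR0X011793.hg.1 had 9.80, 9.77 and 9.64 on the shRNA3 arrays, against 9.23, 9.09 and 9.14 on the control arrays (0.62, SE 0.06, adjusted p = 0.000764). The 2 exons of 1 gene lay on opposite sides of control with no overlap. EPB41 had 8, 2 rises and 6 falls, and the falls included the junction JUC01003161.hg.1 (-1.91) and the exon PSR01006077.hg.1 (-1.67). LRP2, the endocytic receptor megalin of kidney tubules, had 8, all between -0.64 and 0.83. Some of these calls were lost under alternatives. In LRP2, JUC02020914.hg.1 was lost under 15 (largest adjusted p = 0.125), JUC02020921.hg.1 under 6, and JUC02020904.hg.1 and JUC02020962.hg.1 under 5 each. JUC0X005787.hg.1 of AP1S2 (largest adjusted p = 0.12) and JUC01003145.hg.1 of EPB41 (0.109) were each lost under 10. Probe sets of 1 gene share its transcripts and are not independent.

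Known targets are genes in which RBFOX proteins have been found to direct splicing, and more than 1 in 2 of those tested held a changed probe set with shRNA3. Of 48 such genes listed, 46 were tested and 26 (56.5%) had at least 1 called splicing index, beside 3.69% of all genes tested. The list holds RBFOX2, which the hairpins target, and without it 25 of 45 (55.6%) had one. The list was drawn up from targets known from other work, with earlier results of these data known. Leaving out single arrays gave 24 to 26 genes. The count was 19 with the level filter at the 60th percentile, beside 320 of 13191 genes. It was 22 at 2-fold, beside 92 of 15891, and 31 with no minimum fold, beside 2217 of 15891. A gene with more probe sets has more chances to hold a called one, and the shares were not adjusted for this. The 26 genes held 77 called probe sets, 55 lower and 22 higher, of which 54 lower and 16 higher were outside RBFOX2, and 8 of the genes were among those with the 12 largest falls and 4 among those with the 12 largest rises. In 22 of the 26 the most changed probe set was lower and in 4, RBFOX2 among them, it was higher. Of these 26 probe sets 20 were junctions and 6 exons.

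Beyond the genes already described, the transcription factor subunit gene NFYA had 7.07, 6.93 and 7.04 on the shRNA3 arrays at the junction JUC06021155.hg.1, against 9.15, 9.10 and 9.32 on the control arrays (-1.95, SE 0.12, adjusted p = 1.93e-05). NDEL1, which acts with dynein, had 8.99, 9.03 and 8.82 on the shRNA3 arrays at JUC17001153.hg.1, against 10.68, 10.64 and 10.73 on the control arrays (-1.63, SE 0.07, adjusted p = 1.67e-06). CLASP2 had 6.30, 6.58 and 6.31 on the shRNA3 arrays at JUC03010929.hg.1, against 8.19, 7.93 and 8.18 on the control arrays (-1.80, SE 0.13, adjusted p = 6.66e-05). All 3 showed a wide gap between the groups. The shRNA3 means of this CLASP2 junction and of the PLOD2 probe set below lay under the level cutoff. The membrane skeleton gene ADD3 (-1.35), the polarity kinase MARK3 (-1.33), the kinesin KIF1B (-1.30), LRRFIP2 (-1.21), EPB41L3 (-1.21) and ECT2, a gene of cell division (-1.04) were lower at their most changed probe set, and the kinase MAP3K7 was higher (1.03). Smaller called changes included those of the tight junction gene TJP1 (-1.01), the tropomyosin TPM1 (-0.94), NUMA1 (-0.84) and the collagen lysyl hydroxylase PLOD2 (-0.71). The call in PLOD2 was lost under 8 alternatives, among them the replicate block and each control array left out (largest adjusted p = 0.114), and that in TJP1 under 6 (largest adjusted p = 0.0803). RBFOX1, whose gene value did not pass, had 8.004, 7.95 and 7.93 on the shRNA3 arrays at its exon probe set PSR16002247.hg.1, against 8.50, 8.70 and 8.62 on the control arrays (-0.71, SE 0.07, adjusted p = 0.00082). This index changed by -0.89 with shRNA1 and by -0.57 with shRNA2, the order of the RBFOX2 gene changes. Whether the probe set also detects RBFOX2 RNA was not tested. Among the 20 without a called probe set were CTTN, FAT1, SLK, MBNL1 and MEF2D.

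The same 26 probe sets were set against the other hairpins, which share no arrays with shRNA3 but are measured against the same control arrays. By the test of the difference itself, at an adjusted p below 0.05 and at least 1.5-fold, none of the 26 differed between shRNA3 and shRNA1, where 0.00311% of all splicing indices did, and 7 differed between shRNA3 and shRNA2, where 0.0189% did. The EPB41L2 junction JUC06013065.hg.1 changed by -3.16 with shRNA3, by -3.49 with shRNA1 and by -1.23 with shRNA2 (shRNA3 minus shRNA2 -1.93, SE 0.11, adjusted p = 7.23e-05). The FN1 exon PSR02044167.hg.1 changed by -2.81 with shRNA3, by -2.90 with shRNA1 and by -0.79 with shRNA2 (shRNA3 minus shRNA2 -2.01, SE 0.12, adjusted p = 0.000119). The ENAH junction JUC01031071.hg.1 changed by -2.36 with shRNA3, by -2.39 with shRNA1 and by -0.86 with shRNA2 (shRNA3 minus shRNA2 -1.51, SE 0.10, adjusted p = 0.000144). In these the shRNA3 values were close to those of shRNA1, although a difference that misses the threshold does not show that they were alike. The 26 were picked by their shRNA3 change, which can enlarge that change beside the others.

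Some gene changes were larger or smaller with shRNA3 than with either other hairpin. The difference from shRNA1 passed in 1182 genes (7.1%) and that from shRNA2 in 593 (3.56%). By the tests of both differences this held for 296 genes (1.78%), 76 higher (0.457%) and 220 lower (1.32%) with shRNA3. Lowest beside the others was NEK7, whose change was -0.75 with shRNA3, -0.05 with shRNA1 and -0.14 with shRNA2 (shRNA3 minus shRNA2 -0.61, SE 0.06, adjusted p = 5.59e-05). CERS5 changed by -0.59 with shRNA3, by 0.07 with shRNA1 and by -0.00 with shRNA2 (shRNA3 minus shRNA2 -0.59, SE 0.05, adjusted p = 3.03e-05). NECAP1 changed by -0.52 with shRNA3 and by -0.03 with each of the others (shRNA3 minus shRNA1 -0.48, SE 0.04, adjusted p = 3.75e-05). CLGN, a chaperone of the endoplasmic reticulum best known in testis, changed by -0.42 with shRNA3, by 0.29 with shRNA1 and by 0.02 with shRNA2. DUS2, a tRNA dihydrouridine synthase listed as DUS2L, had 9.27, 9.33 and 9.25 on the shRNA3 arrays, against 9.62, 9.60 and 9.55 on the control arrays (-0.31), and changed by 0.14 with shRNA1 and with shRNA2. These 5 genes had 17 to 21 probe sets each called lower with shRNA3, but their low gene values are means of the same probe sets. RBFOX2 itself was lower with shRNA1 than with shRNA3.

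Higher beside both others were ARRDC4, an arrestin-domain gene (0.62 with shRNA3, 0.17 with shRNA1 and 0.23 with shRNA2), and MYOM2, a gene of the muscle M band (0.44, 0.15 and 0.08 in the same order). ARRDC4 had 9.08, 9.06 and 8.93 on the shRNA3 arrays, against 8.36, 8.52 and 8.34 on the control arrays. LGALS3BP, a secreted glycoprotein that binds galectin, changed by 0.17 with shRNA3, by -0.14 with shRNA1 and by -0.43 with shRNA2. Its call for shRNA3 against control was lost with medians of probe sets (adjusted p = 0.155). ACSM3, an acyl-CoA synthetase gene, changed by 0.08 with shRNA3, which did not pass, and by -0.25 with each of the others. KRTAP19-1 changed by -0.78 with shRNA3, by -1.22 with shRNA1 and by -1.11 with shRNA2. Its difference from shRNA2 was lost under 11 alternatives, among them the replicate block, array weights and medians of probe sets (largest adjusted p = 0.57), and its difference from shRNA1 with medians (adjusted p = 0.532). With medians the differences of ARRDC4 from shRNA2 (largest adjusted p = 0.0584) and of MYOM2 from shRNA1 (adjusted p = 0.0599) were lost too, and that of ARRDC4 also without shRNA3 replicate 1. The count of 296 rests on single arrays: it was 102 without shRNA3 replicate 1, 100 without shRNA3 replicate 3, 156, 144 and 152 without shRNA1 replicate 1, 2 and 3, 667 without shRNA2 replicate 2 and 181 without shRNA2 replicate 3.

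**Figure D5:**
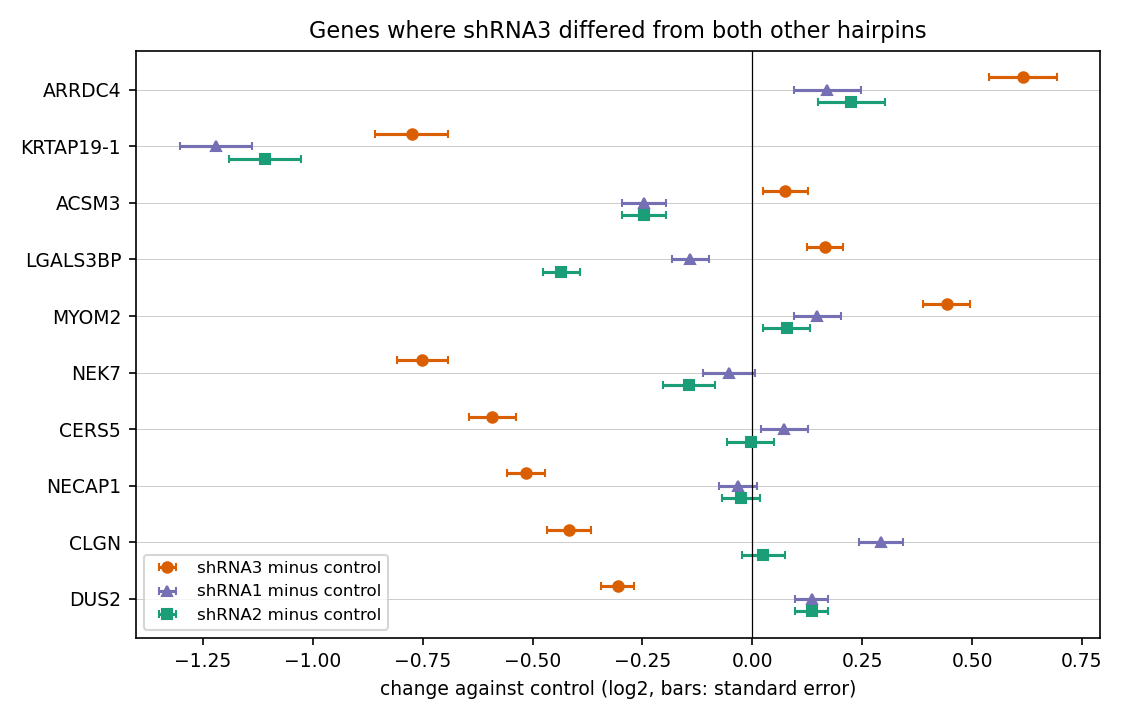
Log2 change against control (x axis, bars are standard errors, 3 arrays per group) with shRNA3, shRNA1 and shRNA2, for the 5 genes highest and the 5 genes lowest with shRNA3 beside both other hairpins. All changes use the same 3 control arrays. NEK7, CERS5 and NECAP1 lie at -0.75, -0.59 and -0.52 with shRNA3 and near 0 with the others.

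Splicing indices that set shRNA3 apart from both other hairpins were few, 4 of 417377 (0.000958%), and their calls were fragile, the count running from 0 to 12 when single arrays were left out. They were the HYCC1 junction JUC07009127.hg.1 (shRNA3 minus shRNA1 -1.23, adjusted p = 0.0261), the junction JUC01028636.hg.1 of the RNA-binding RC3H1 (shRNA3 minus shRNA2 -0.94, adjusted p = 0.0382), the exon PSR01045726.hg.1 of the mitochondrial carrier SLC25A24 (shRNA3 minus shRNA1 0.61, adjusted p = 0.0395) and the exon PSR04022154.hg.1 of CLGN (shRNA3 minus shRNA2 0.64, adjusted p = 0.0297). In CLGN and SLC25A24 the gene value itself fell with shRNA3, by 0.42 and 0.48, while these exons had nearly the same signal as control: 10.95, 10.86 and 10.97 on the shRNA3 arrays, against 10.75, 10.81 and 10.78 on the control arrays for SLC25A24.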

How the data were processed

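RNA of 12 samples of 293T cells was measured on Affymetrix exon and junction arrays. Per the submitters' processing notes, the authors used Affymetrix Expression Console and RMA, and the sources used here give no versions, settings or genome build. The deposited values are on a log2 scale, per their range, and were used unchanged. RMA values are known to compress folds.

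The deposited log2 values came in 914585 rows, 573909 for exons, 339146 for junctions and 1530 controls, which were left out. Probe sets with 1 gene symbol in the platform annotation (672085; 39483 had several and 201487 none) were used, and of the 22085 symbols 2474 were updated through RefSeq gene names and 71 found no match. Identical copies within a gene (26130) were counted once. Array medians ran from 7.24 to 7.27 and correlations between arrays from 0.991 to 0.995. No arrays were identical. Probe sets were kept if their mean over 12 arrays exceeded the 40th percentile, log2 6.53. Gene values averaged at least 3 kept probe sets, and splicing indices needed at least 4. The number of arrays limits the precision.

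Two-sided tests were made with lmFit and eBayes of limma 3.58.1 under R 4.3.3, using data.table, version 1.17.8, with the 4 groups fitted together without a block, 8 residual degrees of freedom and Benjamini-Hochberg adjustment over all features of a contrast. Calls needed an adjusted p below 0.05, and for splicing indices at least 1.5-fold. A difference from both other hairpins had to be called with the same sign in each. Errors are standard errors of the fit. Same-numbered shRNA3 and control arrays deviated with correlations of -0.14, -0.30 and 0.17 over genes, so the numbers were not taken to pair arrays. The limma calls were tested on simulated gene values and splicing indices with independent noise. The level filter, the averaging of probe sets and their dependence within a gene were not simulated. Of 100 gene values changed 1.25-fold 92 were called, and of 100 indices changed 2-fold 92 were called. False calls numbered 7 among gene values and 1 among indices.

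Named were the RBFOX genes, the 12 largest rises and falls of genes and of splicing indices, the 5 genes each way farthest from both other hairpins, up to 4 members per gene list, the genes with the most changed probe sets, and the most changed probe set of each known target. The 12 largest rises and falls were drawn only from called genes and called splicing indices whose groups did not overlap. Lack of overlap adds little to a call: it held in 4385 of the 4468 called genes and in all 815 called splicing indices. Members and lists were chosen with earlier results of these data known. Alternatives covered the arrays fitted, block, level filter, normalization, variance prior, array weights, gene summary, reference probe sets, fold threshold and each array left out. Sequence came from RefSeq's promoter windows of GRCh38.p14 alone. No hairpin sequence or probe set position was used here, so RBFOX motifs near changed exons were not searched.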

Additional observations from a re-analysis of the deposited data

Results flagged for a closer look

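The genes farthest from both other hairpins are listed again because tests of the differences between hairpins set shRNA3 apart there. The smaller of the differences from shRNA1 and shRNA2 was 0.39 for ARRDC4, 0.33 for KRTAP19-1, 0.32 for ACSM3, 0.31 for LGALS3BP and 0.29 for MYOM2 on the log2 scale. Among the genes lower with shRNA3 it was -0.61 for NEK7, -0.59 for CERS5, -0.48 for NECAP1, -0.44 for CLGN and -0.44 for DUS2. For splicing indices it was 0.64 for the exon PSR04022154.hg.1 of CLGN, 0.61 for the exon PSR01045726.hg.1 of SLC25A24, -1.23 for the junction JUC07009127.hg.1 of HYCC1 and -0.94 for the junction JUC01028636.hg.1 of RC3H1. The differences of KRTAP19-1 and of the 4 probe sets were lost under many alternatives. What sets shRNA3 apart in these genes was not tested.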

How the results depend on the processing

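No called result reversed its direction. Over 248 single genes and probe sets, 5302 of 5653 recomputed values kept their call or their lack of one, 306 lost a call and 45 gained one. RBFOX2 was called under every alternative, at -0.75 to -0.74 when single arrays were left out. Genes called against control numbered 4468 and became 2239 with medians of probe sets and 2186 to 5184 without single arrays, and with array weights 3171 were higher and 3065 lower. The 305 called members of gene lists became 174 with medians and 170 to 331 without single arrays. Splicing indices called against control numbered 815 and became 457 with the compared arrays alone, 139 at 2-fold, 3335 with no minimum fold (1774 higher and 1561 lower), 439 with the level filter at the 60th percentile, 477 with no level filter and 312 to 923 without single arrays. Genes apart from both other hairpins, 296, became 90 with medians and 100 to 667 without single arrays. The 4 splicing indices apart from both became 0 with the knockdown arrays alone, 12 with an intensity trend, 1 at 2-fold, 2 at the 25th and 8 at the 60th percentile, 0 with no level filter, 9 with a median reference, 2 with an exon-only reference and 0 to 12 without single arrays. Where the count was 0, it says only that none passed limma's adjusted threshold and fold. With the replicate number as a block, 4317 genes, 643 splicing indices, 299 list members, 263 genes apart from both hairpins and 1 such splicing index were called, and RBFOX2 stayed at -0.74 (adjusted p = 9.82e-07). The labels do not say that the numbers pair the arrays. The cause of these shifts was not tested, beyond fewer arrays in a fit and fewer probe sets under a filter.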
